A study of Mus musculus with 12 samples.

Results

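The glucocorticoid receptor and its target genes were followed in mouse hearts through 7 genes, chosen by name. These were the receptor itself (Nr3c1), the related mineralocorticoid receptor (Nr3c2), the enzyme that regenerates active hormone inside cells (Hsd11b1), and 4 genes that glucocorticoids induce, Fkbp5, Tsc22d3, Sgk1 and Zbtb16. All 7 were present among the 33615 gene symbols of the count table, and all 7 passed the filter on low counts that left 15952 genes for testing. Hearts came from 3 groups of mice with 4 libraries each. In I/R + ML264, hearts had 30 min of ischemia and 2 h of reperfusion, and the mice received ML264, a small molecule used to inhibit the transcription factor KLF5. In I/R, hearts had the same injury without the inhibitor. In Sham, mice had a sham operation and are labelled with the same time of 2 h. No genotype, strain, age, sex, time of day, batch or ML264 dose is given in the labels, and they do not state that each library is 1 animal, so the p-values speak of the spread among libraries, which may be technical.

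Glucocorticoids are adrenal steroid hormones released with stress and in a daily rhythm. They enter cells and bind NR3C1, which waits in the cytoplasm in a complex with heat shock proteins, moves to the nucleus and binds palindromic DNA sites near its target genes. In cardiomyocytes both NR3C1 and NR3C2 can bind the hormone, and the enzyme HSD11B1 sets how much active hormone is made locally. Among the targets, FKBP5 is a co-chaperone that lowers the receptor's affinity for hormone, TSC22D3 (also called GILZ) carries out part of the anti-inflammatory action, SGK1 is a kinase acting on ion channels and cell survival, and ZBTB16 (PLZF) is a zinc finger transcription factor.

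The receptors and the enzyme overlapped between all 3 groups, whereas the target genes Sgk1, Zbtb16 and Tsc22d3 spread most widely among the Sham libraries. Fkbp5 and Sgk1 were higher in every I/R library than in every Sham library, but neither passed the test over all genes. Sham libraries 2 and 3 held the 2 lowest of the 12 values for Fkbp5, Tsc22d3, Sgk1 and Zbtb16, with 3.70-fold, 2.38-fold, 6.35-fold and 6.72-fold between the highest and lowest Sham library. Values are CPM (estimated counts per M counts of the library, M for mega), scaled by TMM factors that correct for a few very abundant genes. Libraries held 22.26 to 29.93 M estimated counts, 35.24% to 41.13% of them from mitochondrially encoded genes, so that 3 counts stand for 0.1002 to 0.1348 CPM. These are bulk samples, in which fewer cells of a type and less RNA per cell cannot be told apart. The heart label was checked against 10 cardiomyocyte markers, all of which were tested, and their summed level was 94910 to 104500 CPM in I/R + ML264, 92620 to 106100 CPM in I/R and 87660 to 100700 CPM in Sham.

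**Figure D1:**
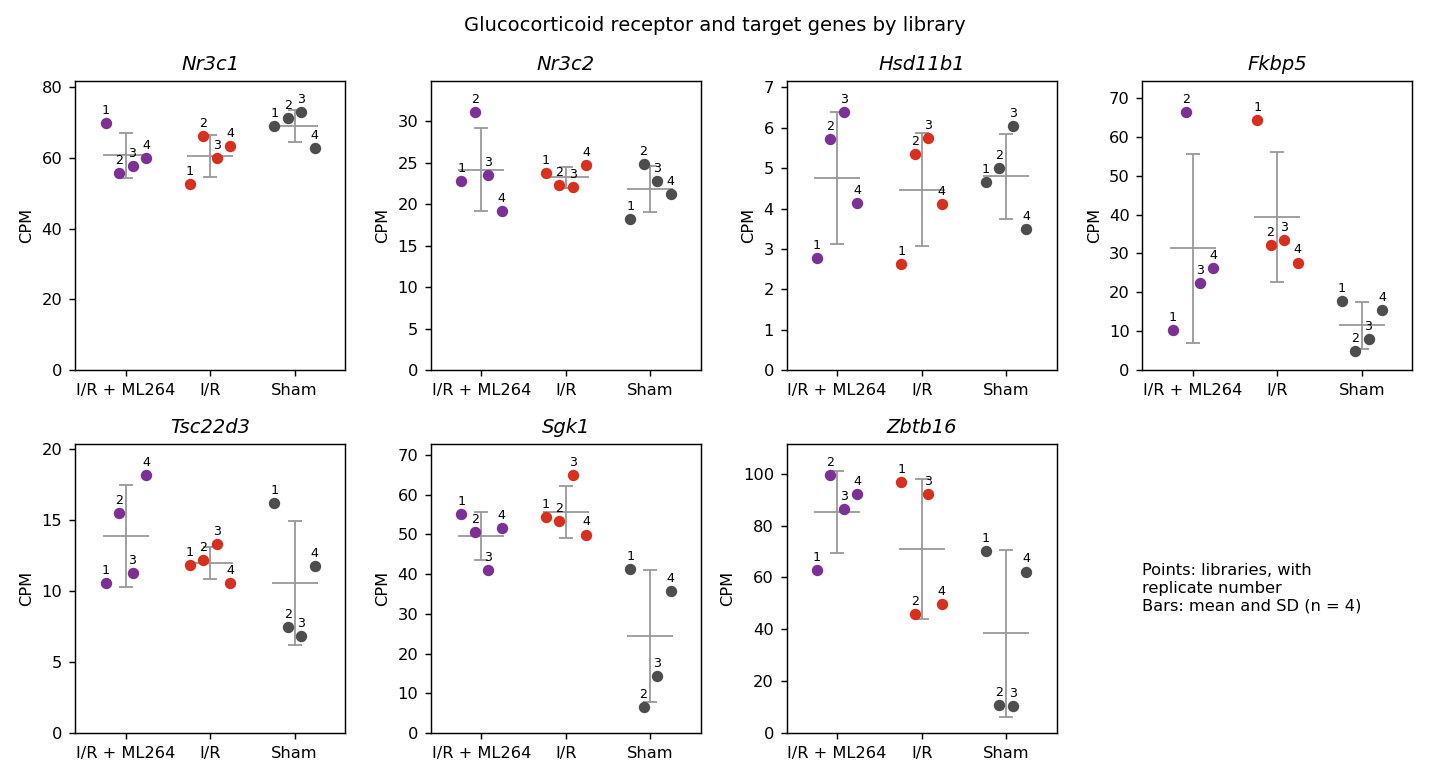
CPM of the 7 genes (vertical axes, from 0) in the 4 libraries of I/R + ML264, I/R and Sham, each point labelled with its replicate number, with grey bars for the mean and SD (n = 4). Nr3c1, Nr3c2 and Hsd11b1 overlap between all groups, and Sham libraries 2 and 3 are the lowest points for Fkbp5, Tsc22d3, Sgk1 and Zbtb16.

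Nr3c1 (chromosome 18, 39410545 to 39519421, minus strand, GRCm38, GENCODE M21), the glucocorticoid receptor, had 69.7, 55.6, 57.6 and 59.8 CPM in I/R + ML264 libraries 1 to 4. It had 52.5, 66.0, 59.9 and 63.3 CPM in I/R libraries 1 to 4, and 69.0, 71.2, 72.9 and 62.7 CPM in Sham libraries 1 to 4. The groups overlapped, I/R library 1 was the lowest of the 12 and Sham library 3 the highest. The mean was 60.7 ± 6.29 CPM in I/R + ML264, 60.5 ± 5.86 CPM in I/R and 69.0 ± 4.44 CPM in Sham (SD, n = 4). Its log2 fold change was -0.19 ± 0.090 (SE) in I/R versus Sham, with an adjusted p of 0.216 (edgeR's quasi-likelihood test with Benjamini-Hochberg adjustment over all 15952 genes, as for every adjusted p of a gene below). For I/R + ML264 versus I/R it was 0.0052 ± 0.090, with adjusted p = 0.99.

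Nr3c2 (chromosome 8, 76899442 to 77245012, plus strand), the mineralocorticoid receptor, had 22.8, 31.1, 23.5 and 19.2 CPM in I/R + ML264 libraries, 23.8, 22.4, 22.1 and 24.7 CPM in I/R libraries and 18.2, 24.8, 22.9 and 21.3 CPM in Sham libraries. I/R + ML264 library 2 was the highest of the 12, and the groups overlapped. The log2 fold change was 0.093 ± 0.13 (SE) in I/R versus Sham and 0.057 ± 0.13 for I/R + ML264 versus I/R, with adjusted p = 0.729 and 0.914. An opposite-strand gene, Gm10649, overlaps its exons and shares part of its sequence: 2.9% of the 31-base words of Nr3c2 transcripts also occur in other genes. The kit does not mark strand, so reads of that stretch cannot be assigned to one of the pair.

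Hsd11b1 (chromosome 1, 193221634 to 193264075, minus strand), which converts inactive 11-keto steroids into active hormone, was the least abundant of the 7. It had 2.77, 5.71, 6.39 and 4.15 CPM in I/R + ML264 libraries, 2.64, 5.35, 5.75 and 4.12 CPM in I/R libraries and 4.66, 4.998, 6.04 and 3.49 CPM in Sham libraries. The lowest library of each injured group was replicate 1, and the groups overlapped. Its log2 fold change was -0.11 ± 0.27 (SE) in I/R versus Sham and 0.094 ± 0.27 for I/R + ML264 versus I/R, with adjusted p = 0.859 and 0.935. Its counterpart Hsd11b2, which inactivates the hormone and gives aldosterone access to NR3C2 in the kidney, was near the detection limit at 0.300 ± 0.125 CPM in I/R + ML264, 0.416 ± 0.206 CPM in I/R and 0.558 ± 0.331 CPM in Sham (SD, n = 4).

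Fkbp5 (chromosome 17, 28399094 to 28517527, minus strand) had the largest fold change of the 7 between I/R and Sham. It had 10.4, 66.3, 22.4 and 26.2 CPM in I/R + ML264 libraries 1 to 4. It had 64.3, 32.2, 33.4 and 27.7 CPM in I/R libraries, and 17.8, 4.82, 8.09 and 15.4 CPM in Sham libraries. Every I/R library lay above every Sham library, and I/R library 1 stood well above the other I/R libraries. I/R + ML264 library 1 fell inside the Sham range while library 2 of that group was the highest of all 12, a 6.36-fold spread within the group. Fkbp5 averaged 39.4 ± 16.8 CPM in I/R and 11.5 ± 6.10 CPM in Sham (SD, n = 4), a log2 fold change of 1.78 ± 0.62 (SE) with adjusted p = 0.121. It averaged 31.3 ± 24.3 CPM in I/R + ML264, with a log2 fold change of -0.33 ± 0.59 against I/R (adjusted p = 0.892) and 1.45 ± 0.61 against Sham (adjusted p = 0.359).

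Sgk1 (chromosome 10, 21882184 to 21999903, plus strand), the kinase, had 55.2, 50.7, 41.0 and 51.7 CPM in I/R + ML264 libraries, 54.3, 53.5, 65.0 and 49.98 CPM in I/R libraries and 41.2, 6.48, 14.3 and 35.7 CPM in Sham libraries. The 8 injured libraries stayed within a narrow range, 1.35-fold in I/R + ML264 and 1.30-fold in I/R, while Sham spanned 6.35-fold. All I/R libraries lay above all Sham libraries, and I/R + ML264 library 3 fell just below Sham library 1. The mean was 49.7 ± 6.06 CPM in I/R + ML264, 55.7 ± 6.50 CPM in I/R and 24.4 ± 16.7 CPM in Sham (SD, n = 4). Its log2 fold change was 1.19 ± 0.47 (SE) in I/R versus Sham (adjusted p = 0.165), -0.17 ± 0.46 for I/R + ML264 versus I/R (adjusted p = 0.933) and 1.03 ± 0.47 for I/R + ML264 versus Sham (adjusted p = 0.398).

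Zbtb16 (chromosome 9, 48654297 to 48836222, minus strand), the zinc finger factor, had 63.0, 99.7, 86.5 and 92.3 CPM in I/R + ML264 libraries, 96.7, 45.9, 92.1 and 49.7 CPM in I/R libraries and 70.2, 10.6, 10.5 and 62.3 CPM in Sham libraries. Sham fell into a low pair, libraries 2 and 3, and a pair inside the injured range, libraries 1 and 4. I/R was also split, with libraries 2 and 4 below Sham library 4. Its log2 fold change was 0.89 ± 0.63 (SE) in I/R versus Sham, 0.26 ± 0.62 for I/R + ML264 versus I/R and 1.16 ± 0.64 for I/R + ML264 versus Sham, with adjusted p = 0.455, 0.919 and 0.488.

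Tsc22d3 (chromosome X, 140539528 to 140600659, minus strand), the GILZ gene, had 10.5, 15.5, 11.3 and 18.2 CPM in I/R + ML264 libraries, 11.8, 12.1, 13.3 and 10.6 CPM in I/R libraries and 16.2, 7.42, 6.81 and 11.7 CPM in Sham libraries. Sham libraries 2 and 3 were the only ones under 10 CPM, and Sham library 1 exceeded every I/R library. The log2 fold change was 0.19 ± 0.25 (SE) in I/R versus Sham, 0.21 ± 0.25 for I/R + ML264 versus I/R and 0.40 ± 0.25 for I/R + ML264 versus Sham, with adjusted p = 0.725, 0.819 and 0.549.

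None of the 7 genes was called (adjusted p under 0.05) in any of the 3 comparisons. In I/R versus Sham, 7.75% of the 15952 genes were called, 4.58% higher and 3.17% lower. At an unadjusted p under 0.05, there were 2 of the 7 (Fkbp5 and Sgk1) in I/R versus Sham, where 23.2% of all genes were, 0 in I/R + ML264 versus I/R (10.4% of all genes) and 1 (Fkbp5) in I/R + ML264 versus Sham (13.0% of all genes). By DESeq2, 1 of the 7 was called in I/R versus Sham, Fkbp5 with adjusted p = 0.0341, and 0 in each of the other comparisons. DESeq2 called 9.36% of all genes with an adjusted p in I/R versus Sham (5.41% higher), 0.894% in I/R + ML264 versus I/R (0.341% higher) and 2.07% in I/R + ML264 versus Sham (1.61% higher). With a spread estimated without the robust option in edgeR, Fkbp5 had adjusted p = 0.0412. Over 23 processing alternatives its adjusted p ranged from 0.0341 to 0.27. By overlap of CPM, 2 of the 7 did not overlap between I/R and Sham, against 15.8% of all genes (8.54% higher, 7.25% lower). For I/R + ML264 versus I/R, 0.0502% of genes were called (0.0125% higher, 0.0376% lower) and 5.62% did not overlap (2.54% higher, 3.08% lower). For I/R + ML264 versus Sham 0.288% were called (0.257% higher, 0.0313% lower) and 7.37% did not overlap (3.99% higher, 3.37% lower). In both, 0 of the 7 were called or did not overlap. With 1 library left out at a time, the number of genes called ranged from 659 to 1485 in I/R versus Sham, from 0 to 85 in I/R + ML264 versus I/R and from 9 to 101 in I/R + ML264 versus Sham. Any pair of these comparisons shares 1 of the groups, so they are not independent.

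**Figure D2:**
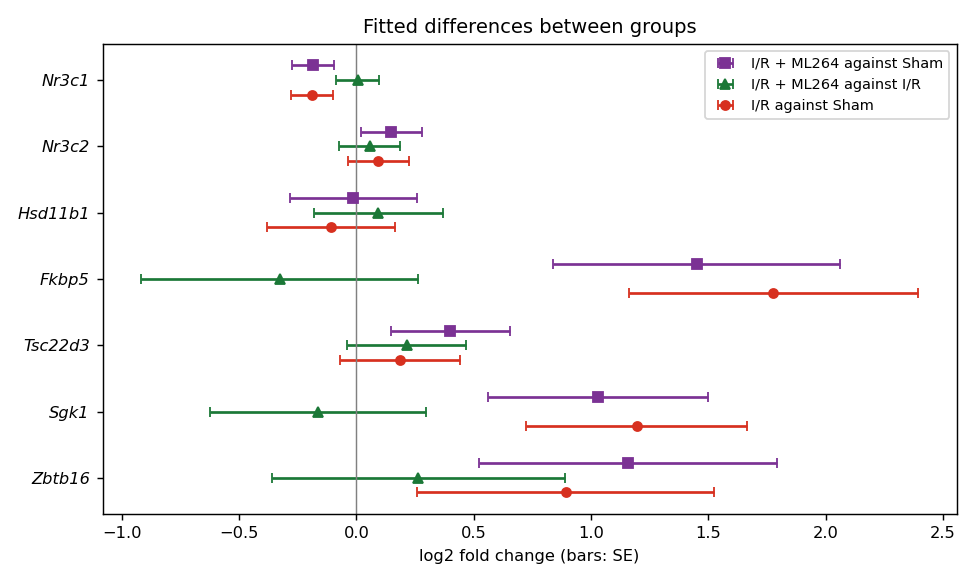
Log2 fold change (horizontal axis) with its SE for the 7 genes in I/R + ML264 versus Sham, I/R + ML264 versus I/R and I/R versus Sham. Against Sham, Fkbp5, Sgk1 and Zbtb16 lie right of 0 beyond their SE in both comparisons, as do Tsc22d3 and Nr3c2 in I/R + ML264. Nr3c1 lies left of 0 in both, and every bar for I/R + ML264 versus I/R crosses 0.

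Divided by the length of the longest transcript, the order of the mean levels differed between the groups. In I/R + ML264 it was Zbtb16 and Sgk1 (16.7 and 16.04 CPM per kb), Nr3c1 (9.43), Fkbp5 (8.12), Tsc22d3 (4.82), Nr3c2 (4.08) and Hsd11b1 (2.40). In I/R it was Sgk1 (17.99 CPM per kb), Zbtb16 (13.9), Fkbp5 (10.2), Nr3c1 (9.39), Tsc22d3 (4.15), Nr3c2 (3.93) and Hsd11b1 (2.26). In Sham the receptor came first, with Nr3c1 at 10.7 CPM per kb before Sgk1 (7.89), Zbtb16 (7.51), Nr3c2 (3.68), Tsc22d3 (3.67), Fkbp5 (2.99) and Hsd11b1 (2.43). Sgk1 and Zbtb16 did not differ from each other beyond their spread over libraries in any group, nor did Tsc22d3 and Nr3c2. Fkbp5 and Nr3c1 overlapped in I/R + ML264 and I/R, and in Sham the Fkbp5 libraries were all below the Nr3c1 libraries on this scale. Sgk1 overlapped with Nr3c1 in Sham and lay above it in every library of the injured groups. Zbtb16 overlapped with Nr3c1 in I/R and Sham, and with Fkbp5 in every group, so these places in the order do not hold beyond the spread. Among the Sham libraries the 5 genes after Nr3c1 all overlapped with their neighbours. In every group the highest Hsd11b1 library was below the lowest Nr3c2 library on this scale. The longest transcripts of Hsd11b1 (1978 bases) and Tsc22d3 (2876 bases) are annotated as retained introns. The places of these genes depend on that choice of length, and other lengths were not tried.

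The uneven Sham libraries moved together across the target genes. For each gene the mean of log2 CPM over the 12 libraries was subtracted, and these centred levels were averaged over Fkbp5, Tsc22d3, Sgk1 and Zbtb16. The average was -0.091, 0.85, 0.21 and 0.55 in I/R + ML264 libraries 1 to 4, 0.75, 0.24, 0.61 and 0.14 in I/R libraries 1 to 4, and 0.19, -1.90, -1.47 and -0.073 in Sham libraries 1 to 4. Sham libraries 1 and 4 thus lay inside the range of the injured libraries, and libraries 2 and 3 more than 1 log2 unit below every other. Sham libraries 2 and 3 were the 2 lowest of the 12 for 4 of the 7 genes, against 4.48% of all genes tested (714 of 15952). The pair was picked from the values of these genes, so the comparison is a description only.

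The same libraries stood apart in Arntl (Bmal1), the activator of the circadian clock. Arntl was at 3.09, 2.49, 1.25 and 1.81 CPM in I/R + ML264 libraries, 11.1, 1.18, 2.01 and 1.05 CPM in I/R libraries and 3.26, 10.4, 15.3 and 2.89 CPM in Sham libraries. Its 3 highest libraries were thus Sham 2, Sham 3 and I/R 1. Per1, a clock gene that glucocorticoids also induce, had 49.5, 56.8, 42.4 and 66.9 CPM in I/R + ML264 libraries, 51.9, 49.8, 66.9 and 48.1 CPM in I/R libraries and 33.8, 4.20, 2.64 and 20.9 CPM in Sham libraries. I/R library 1 was high in Arntl without being low in Per1, Sgk1 or Zbtb16, and it had the highest Fkbp5 of its group. Ddx3y, a Y-linked gene, also split the libraries: it was at 38.8 to 52.0 CPM in all 4 Sham libraries, I/R 2, I/R 3, I/R + ML264 3 and I/R + ML264 4, and at 0.106 to 0.484 CPM in 4 others. With Arntl as a covariate, the log2 fold changes in I/R versus Sham were 1.815 for Fkbp5, 1.008 for Sgk1, 0.838 for Zbtb16 and 0.024 for Tsc22d3. With Ddx3y as a covariate they were 1.552, 1.197, 0.932 and 0.285, and none was called in either fit. Beyond these fits, the part of either split in the differences between groups was not tested.

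**Figure D3:**
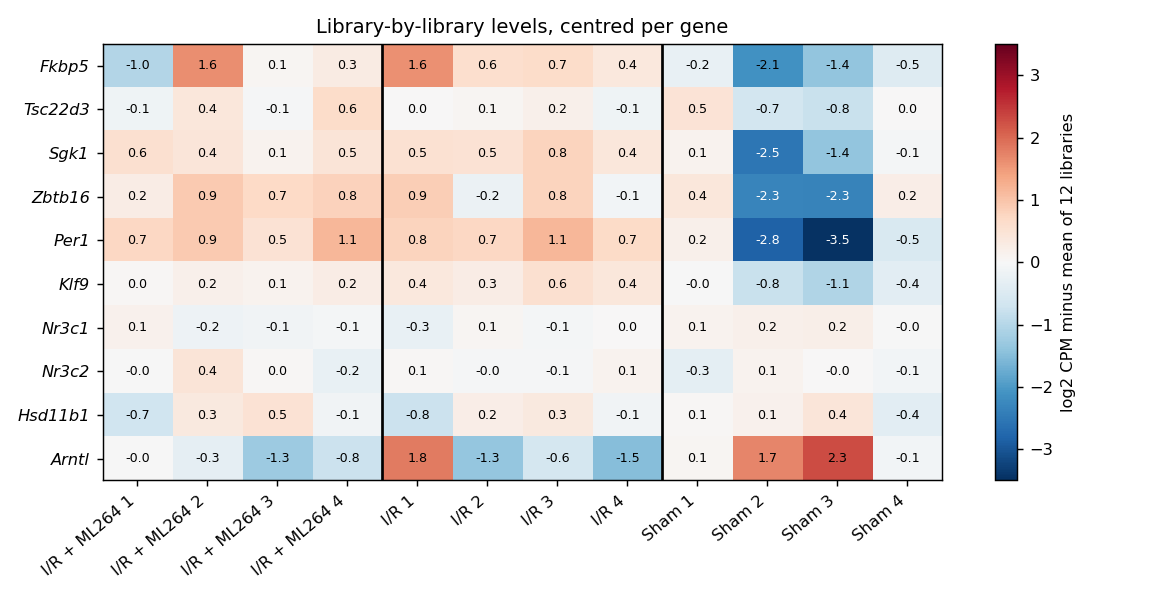
Log2 CPM minus the mean of the 12 libraries (colour and printed value) for 10 genes (rows) in each library (columns, with lines between I/R + ML264, I/R and Sham). Sham libraries 2 and 3 are blue, below the mean, for Fkbp5, Tsc22d3, Sgk1, Zbtb16, Per1 and Klf9 and red for Arntl, while Nr3c1 stays between -0.26 and 0.21 and Hsd11b1 is lowest in I/R + ML264 library 1 (-0.69) and I/R library 1 (-0.76).

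With Sham 2, Sham 3 and I/R 1 left out together, the fold changes of the target genes between I/R and Sham were lower. This choice was made after the values had been seen, and it leaves 2 Sham libraries and 3 I/R libraries. Sham 2 and Sham 3 held the 2 lowest values of each target gene, so leaving them out lowers these fold changes by construction. For I/R versus Sham the log2 fold change of Fkbp5 was then 0.89 (adjusted p = 0.613), that of Sgk1 0.54 (adjusted p = 0.0864), that of Zbtb16 -0.095 and that of Tsc22d3 -0.23. Genes called over the whole table numbered 146 in place of 1236. Fkbp5 ranged from 1.44 to 2.06, Sgk1 from 0.87 to 1.56, Zbtb16 from 0.57 to 1.35 and Tsc22d3 from 0.022 to 0.46 when any 1 library was left out.

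**Figure D4:**
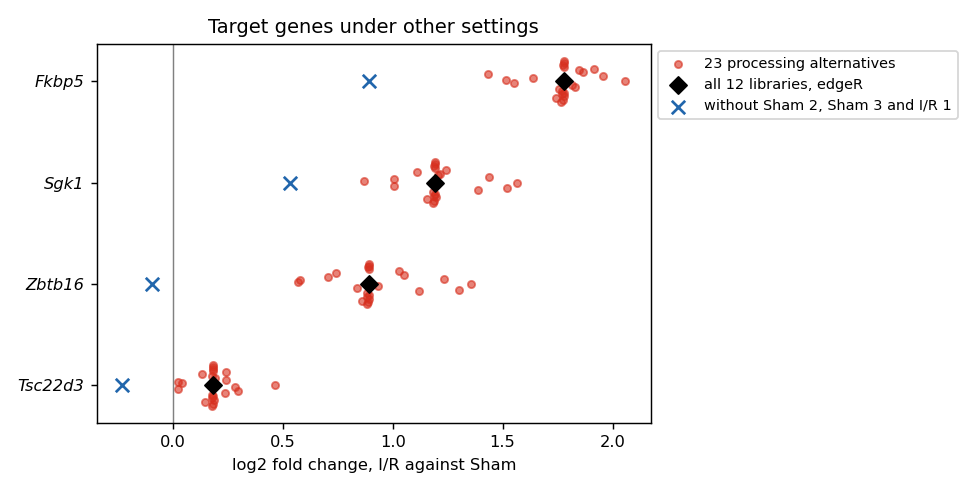
Log2 fold change for I/R versus Sham (horizontal axis) of the 4 target genes under 23 processing alternatives (red points), under the fit to all 12 libraries (black diamonds) and without Sham 2, Sham 3 and I/R 1 (blue crosses). These alternatives all lie right of 0, and the crosses lie left of them, at 0.89 for Fkbp5 and below 0 for Zbtb16 and Tsc22d3. The libraries left out for the crosses were chosen after the values had been seen.

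Upstream sequence is shown for 3 of the target genes because receptor binding sites and clock elements have known letters. The search covered 12 windows of 250 bases before RefSeq gene starts (GRCm38.p6), from 5 of the 7 genes, without Nr3c1 and Zbtb16. The palindromic receptor motif was searched on both strands as AGAACA and TGTTCT with any 3 bases between them. The single arm AGAACA and the E-box CACGTG, the element bound by ARNTL with CLOCK, were searched as well. The full motif occurred in 1 window, a start of Sgk1 (chr10:21993640-21993889, plus strand), with its first base 189 bases before the start. Of 32851 windows of the same length over all genes, 3 hold it (0.00913%), while 16.1% hold the single arm and 6.02% the E-box. The Sgk1 window also held an E-box 246 bases before the start, overlapping by its last letters with a further single arm. Of the Tsc22d3 windows, 1 (chrX:140600523-140600772, minus strand) held a single arm 185 bases before the start, and the Fkbp5 window (chr17:28486150-28486399, minus strand) held an E-box 169 bases before the start and no single arm. Each sequence is given 5′ to 3′ on the strand of the gene, with motif letters in capitals.
Sgk1: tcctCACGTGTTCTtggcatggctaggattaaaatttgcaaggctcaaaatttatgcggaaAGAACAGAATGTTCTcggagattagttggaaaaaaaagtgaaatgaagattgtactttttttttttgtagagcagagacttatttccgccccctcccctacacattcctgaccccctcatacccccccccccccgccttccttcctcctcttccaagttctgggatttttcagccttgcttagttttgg
Tsc22d3: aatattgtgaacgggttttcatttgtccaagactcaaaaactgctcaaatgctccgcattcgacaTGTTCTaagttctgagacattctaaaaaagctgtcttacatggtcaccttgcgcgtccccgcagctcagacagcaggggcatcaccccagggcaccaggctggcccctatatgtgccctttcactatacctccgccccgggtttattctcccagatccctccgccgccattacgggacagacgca
Fkbp5: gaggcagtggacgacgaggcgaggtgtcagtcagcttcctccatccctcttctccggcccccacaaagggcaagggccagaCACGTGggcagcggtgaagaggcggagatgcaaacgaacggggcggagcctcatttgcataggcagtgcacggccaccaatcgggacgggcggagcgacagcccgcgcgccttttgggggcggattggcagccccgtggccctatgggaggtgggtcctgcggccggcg
A match describes these letters, not binding. Sgk1 had 2 other windows of its 6 with a single arm, and the windows of Nr3c2 and Hsd11b1 had none of the 3 motifs. Sites outside these windows, or with other letters, were not searched. Of the genes shown, Sgk1 and Fkbp5 did not overlap between I/R and Sham, as for 15.8% of all genes, and Tsc22d3 did. Whether the motifs have a part in this was not tested.

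Genes of the wider pathway were taken from lists chosen by function, with earlier results of these data known. The shares of all genes beside their counts are therefore descriptions only. Counts below come from the same test over all genes unless DESeq2 is named. Other genes that glucocorticoids induce acutely formed the list with the most calls. Of 29 tested (Tat, a liver enzyme gene, did not pass the filter), 11 rose and 0 fell in I/R versus Sham, where 4.58% of all genes rose, with a median log2 fold change of 0.95 against 0.00 over all genes. In I/R + ML264 versus I/R 0 were called, with a median of -0.09. The median was 0.97 in I/R + ML264 versus Sham, with 0 called. At an unadjusted p under 0.05 there were 18 of the 29 in I/R versus Sham (23.2% of all genes), 2 in I/R + ML264 versus I/R (10.4% of all genes) and 19 in I/R + ML264 versus Sham (13.0% of all genes). By DESeq2, which tested 30 of the list, 12 were called in I/R versus Sham, 1 in I/R + ML264 versus I/R (Ptgds) and 7 in I/R + ML264 versus Sham (Errfi1, Klf9, Mt2, Nfkbia, Pik3r1, Ptgds and Zfp36), all higher, against 5.41%, 0.341% and 1.61% of all genes. Klf9, a Kruppel-like factor that mediates part of the receptor's effects, averaged 30.2 ± 1.83 CPM in I/R + ML264, 35.7 ± 2.88 CPM in I/R and 19.1 ± 6.16 CPM in Sham (SD, n = 4), a log2 fold change of 0.90 ± 0.17 (SE, adjusted p = 0.0073) for I/R versus Sham. Nfkbia, which encodes the NF-kB inhibitor, averaged 4.32 ± 2.12 CPM in I/R + ML264, 6.72 ± 0.435 CPM in I/R and 2.04 ± 0.784 CPM in Sham (1.73 ± 0.33, adjusted p = 0.0077). Errfi1, an inhibitor of the EGF receptor, averaged 152 ± 43.5 CPM in I/R + ML264, 165 ± 34.2 CPM in I/R and 36.2 ± 25.9 CPM in Sham (2.19 ± 0.47, adjusted p = 0.0242). Cdkn1a, the cell cycle inhibitor p21, averaged 66.1 ± 51.1 CPM in I/R + ML264, 143 ± 79.2 CPM in I/R and 20.7 ± 6.25 CPM in Sham (2.79 ± 0.60, adjusted p = 0.0245).

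The metallothionein Mt1, a metal-binding protein gene, had a log2 fold change of 2.43 ± 0.52 (SE, adjusted p = 0.0206) for I/R versus Sham, and Mt2 2.68 ± 0.51 (adjusted p = 0.0085). Mt2 is uncertain because 58.1% of its 31-base words also occur in other genes. The calls of Klf9, Nfkbia and Mt2 held with any 1 library left out. Leaving out Sham 3, Sham 4, I/R 2 or I/R 3 ended that of Errfi1, leaving out Sham 2, Sham 3, Sham 4, I/R 1 or I/R 4 ended that of Cdkn1a, and leaving out Sham 2 or Sham 4 ended that of Mt1. The further genes that rose were Cebpd, Pdk4, Zfp36, Glul and Klf15. Per1 (1.83 ± 0.67, adjusted p = 0.14) and Dusp1 (1.06 ± 0.55, adjusted p = 0.294) were not called. Several genes of the list also answer to other signals, Nfkbia and Zfp36 to inflammatory cytokines and Cdkn1a to p53. Sham libraries 2 and 3 were the 2 lowest of the 12 for 13 of the 29, against 4.48% of all genes tested. The pair was picked from the values of the 7 genes, so this too is a description only. Over all genes 731 rose in I/R versus Sham with all 12 libraries. Without Sham libraries 2, 3 or 4, 4 of the 29 rose in each case, and 433, 419 and 433 of all genes. Without I/R library 4, 5 rose (450 of all genes), and without I/R libraries 2 or 3, 6 rose (540 and 560 of all genes). Without Sham libraries 2 and 3 and I/R library 1 together, 0 were called, with a median log2 fold change of 0.61, and 116 of all genes rose. With Ddx3y or Arntl as a covariate 3 and 5 rose (369 and 381 of all genes), and with no filter on low counts 7 (680 of all genes).

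Markers of other cell types also differed. Of 8 neutrophil markers, 6 were tested and 2 were higher in I/R versus Sham, where 4.58% of all genes were higher. The summed level of the 8 was 5.43 to 21.8 CPM in I/R + ML264 and 9.63 to 22.99 CPM in I/R. In Sham it was 5.25 to 7.68 CPM, and S100a8 was at 0 in every Sham library. The summed level of 6 endothelial markers was 333 to 404 CPM in I/R + ML264, 340 to 373 CPM in I/R and 388 to 475 CPM in Sham. Of these only Kdr was called, at 115 ± 27.2 CPM in I/R + ML264, 90.3 ± 14.5 CPM in I/R and 155.5 ± 29.1 CPM in Sham (SD, n = 4). Its log2 fold change in I/R versus Sham was -0.78. Egfl7 and Tie1 also had negative values, -0.67 and -0.38, while Pecam1, Cdh5 and Vwf had 0.046, 0.040 and 0.21. In the other marker lists edgeR called Tnnt2 (cardiomyocyte) higher and Pdgfrb (pericyte) and Adgre1 (macrophage) lower in I/R versus Sham, with no call in either comparison of I/R + ML264. Their part in the differences of the target genes was not tested.

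**Figure D5:**
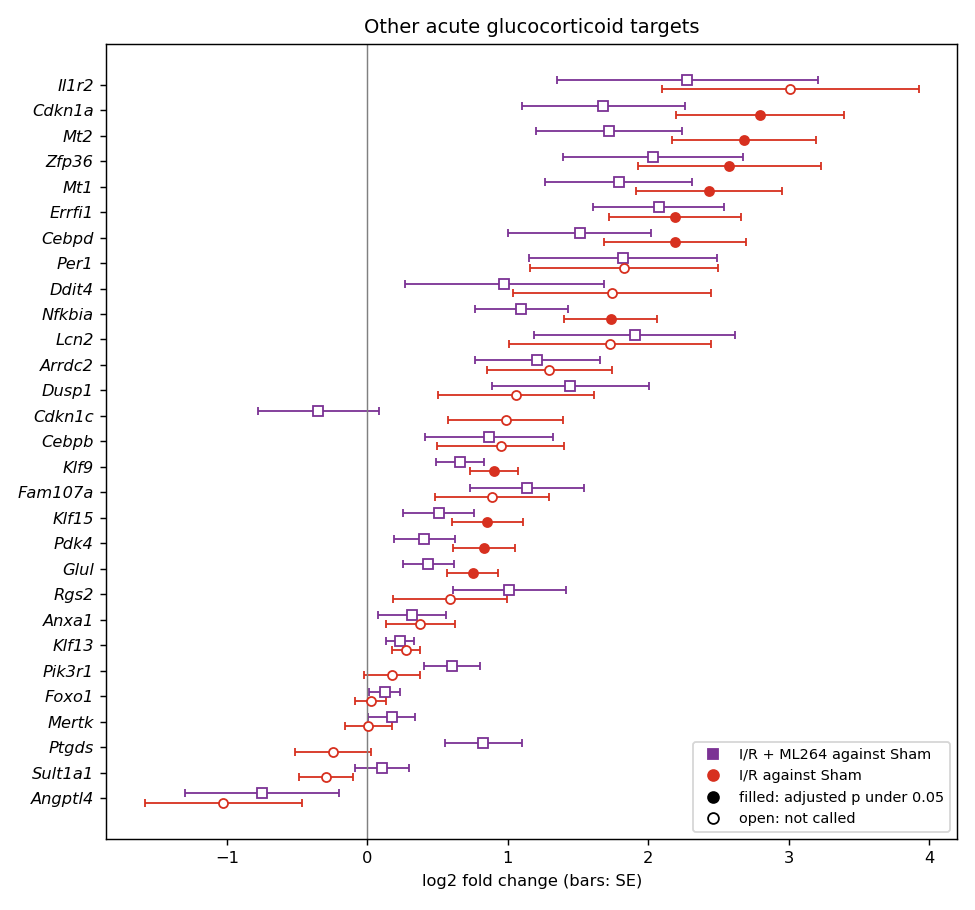
Log2 fold change (horizontal axis) with its SE for the 29 other acute glucocorticoid targets, as squares for I/R + ML264 versus Sham and circles for I/R versus Sham, filled where the adjusted p is under 0.05. For I/R versus Sham 11 circles are filled, all right of 0, and no square is filled.

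Chaperones hold the receptor in its hormone-binding state. Of 12 chaperone and co-chaperone genes tested, 1 rose and 0 fell in I/R versus Sham, against 4.58% and 3.17% of all genes. Their median log2 fold change was 0.15, and DESeq2 also called Dnajb1 higher. The 1 that rose was Hsp90aa1, an HSP90 gene, at 76.3 ± 13.5 CPM in I/R + ML264, 113 ± 17.1 CPM in I/R and 73.8 ± 13.5 CPM in Sham (0.61 ± 0.15, adjusted p = 0.0284). Its value is uncertain, since 51.5% of its 31-base words also occur in other genes, and leaving out Sham 2, Sham 3, Sham 4, I/R 2 or I/R 3 ended its call. Fkbp4, which competes with FKBP5 for the receptor complex, had a log2 fold change of -0.18 ± 0.11 (adjusted p = 0.331).

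Of 12 coregulators tested, 2 rose and 0 fell in I/R versus Sham, against 4.58% and 3.17% of all genes. Of the 2, Ppargc1a, the coactivator PGC-1alpha of mitochondrial biogenesis, averaged 376 ± 127 CPM in I/R + ML264, 678 ± 316 CPM in I/R and 245 ± 44.4 CPM in Sham (1.47 ± 0.34, adjusted p = 0.0311). Leaving out Sham 2, Sham 3, Sham 4 or I/R 4 ended the call of Ppargc1a. The median log2 fold change of the coregulators was 0.09. None of the 9 tested genes of steroid metabolism and access was called (edgeR and DESeq2), and 1 stood at an unadjusted p under 0.05 in I/R versus Sham. Cyp11b2, the aldosterone synthase gene, had no counts in any library.

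Of 12 genes of mineralocorticoid response and sodium transport, 0 rose and 1 fell in I/R versus Sham, against 4.58% and 3.17% of all genes. Edn1, which encodes the vasoconstrictor endothelin-1, averaged 2.77 ± 0.562 CPM in I/R + ML264, 1.62 ± 0.440 CPM in I/R and 3.37 ± 0.415 CPM in Sham (-1.06 ± 0.23, adjusted p = 0.0108). Its call and that of Sgk2 held with any 1 library left out. Among 14 relatives of the 7 genes, 1 rose and 0 fell, against the same shares of all genes. The kinase gene Sgk2 rose, and averaged 5.29 ± 1.68 CPM in I/R + ML264, 6.98 ± 1.51 CPM in I/R and 3.45 ± 0.499 CPM in Sham (1.02 ± 0.22, adjusted p = 0.0108). Sgk3 had a log2 fold change of 0.0051 ± 0.11 (adjusted p = 0.987). DESeq2 also called Tsc22d1 higher. None of the 3 other steroid receptors tested was called by edgeR or DESeq2, and 1 stood at an unadjusted p under 0.05 in I/R versus Sham. The estrogen receptor gene Esr1 was at 1213 CPM in Sham library 2 and at 0.668 to 1.74 CPM in the other 11 libraries. In I/R + ML264 versus I/R and in I/R + ML264 versus Sham, edgeR called 0 genes of any of these lists. By DESeq2, Hsp90aa1 was lower in I/R + ML264 than in I/R, and the lists after the acute targets held no other call in these comparisons. At an unadjusted p under 0.05 there were 4 chaperone genes, 3 coregulators, 1 mineralocorticoid or sodium transport gene and 4 relatives in I/R versus Sham. The counts in I/R + ML264 versus I/R were 5, 3, 1 and 0, with 0 steroid metabolism genes and 1 other steroid receptor. They were 1, 0, 1 and 2 in I/R + ML264 versus Sham, with 0 steroid metabolism genes and 3 of the 3 other steroid receptors. Over all genes the shares were the 23.2%, 10.4% and 13.0% given above.

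The libraries' profiles of the 7 genes were also compared with 10730 other genes by the Pearson correlation of log2 CPM over the 12 libraries, which share groups and depth, so the values are descriptions. Rbm47 (r = 0.949) and Patl1 (0.949) were among the 3 genes most like Fkbp5. Sgk1 was most like Nr4a1, an immediate early nuclear receptor gene (r = 0.957), Rhob (0.942) and Coq10b (0.94). Zbtb16 was most like Mcf2l (r = 0.96), Asap1 (0.94) and Per1 (0.937), and Tsc22d3 like Rasal2 (0.927), Syn2 (0.903) and Tbc1d5 (0.898). Nr3c1 was most like Arhgap18 (r = 0.904), Tpst1 (0.902) and Dhcr7 (0.882). Nr3c2 was most like the clone genes RP23-325K4.8 (r = 0.894) and RP24-286B23.3 (0.879), which share 51.8% and 91.2% of their words with other genes, and Dixdc1 (0.873). Hsd11b1 was most like Ncan (r = 0.879), Zbtb25 (0.868) and Rnh1 (0.833).

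After group means were subtracted, which leaves the differences among libraries of a group, the closest gene was Fam107a for Fkbp5 (r = 0.967), Cramp1l for Sgk1 (0.966), Slc4a8 for Zbtb16 (0.964) and Esam for Tsc22d3 (0.95). It was Arhgap18 for Nr3c1 (0.912), Mgst1 for Nr3c2 (0.912) and Ncan for Hsd11b1 (0.904). Patl1 for Fkbp5, Mcf2l for Zbtb16, Arhgap18 for Nr3c1, RP23-325K4.8 for Nr3c2 and Ncan for Hsd11b1 stood among the 3 closest genes under both measures.

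The count table also gives each transcript. Of 50 transcripts of the 7 genes, 49 were tested among 52965, and 0 were called in any comparison, as were 0 of all transcripts tested by edgeR's quasi-likelihood test. At an unadjusted p under 0.05 stood 4, 5 and 6 transcripts of the 7 genes in I/R versus Sham, I/R + ML264 versus I/R and I/R + ML264 versus Sham, and 3160, 3112 and 3050 of all. By counts per M counts of the library, here without TMM factors, 2 of the 49 did not overlap between I/R and Sham (4.03% of all transcripts). There were 2 between I/R + ML264 and I/R (2.96%) and 4 between I/R + ML264 and Sham (3.06%).

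The transcript with the most counts changed from library to library. Nr3c1 had 5 different top transcripts over the 12 libraries and Sgk1 8, and the median of the 4805 genes with 6 to 13 transcripts was 6. The short transcript Nr3c1-207 (300 bases) had 0, 9.52, 0 and 0 estimated counts in I/R + ML264 libraries, 0, 0, 690.3 and 449.4 in I/R libraries and 766.6, 30.4, 329.5 and 819.3 in Sham libraries. Sgk1-206 (859 bases) had 268.9, 685.4, 170.8 and 94.1 in I/R + ML264 libraries, 708.8, 0, 790.6 and 628.2 in I/R libraries and 0, 6.92, 0 and 0 in Sham libraries. Nr3c1-207 and Sgk1-206 were picked after their values had been seen. Each had an adjusted p of 0.839 in I/R + ML264 versus Sham (edgeR's quasi-likelihood test over all transcripts). Kallisto assigns shared reads in parts to several transcripts, and how far that division varies within a library cannot be read from these values.

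Zbtb16 has 2 transcripts, and they behaved differently from each other. They were picked after their values had been seen. Zbtb16-201 (5114 bases) had 1550, 2196, 1930 and 1626 estimated counts in I/R + ML264 libraries, 2112, 875.1, 1777 and 1037 in I/R libraries and 259.7, 60.6, 268.3 and 218.4 in Sham libraries. Every injured library was above every Sham library, as for 0.279% of all transcripts tested (148 of 52965). Zbtb16-202 (2505 bases) had 226.3, 891.0, 292.0 and 467.8 in I/R + ML264 libraries, 529.7, 292.6, 512.7 and 291.5 in I/R libraries and 1292, 232.9, 32.9 and 1549 in Sham libraries. It was highest in Sham libraries 1 and 4, the pair in which the gene as a whole lay inside the injured range. Zbtb16-201 made up 71.1% to 87.3% of the gene's counts in I/R + ML264, 74.9% to 79.9% in I/R, and 16.7%, 20.6%, 89.1% and 12.4% in Sham libraries 1 to 4. Its log2 fold change was 2.82 ± 0.91 (SE) in I/R versus Sham and 3.13 ± 0.92 for I/R + ML264 versus Sham, with adjusted p = 0.808 and 0.839 over all transcripts.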

How the data were processed

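Bulk RNA was measured in 12 mouse heart libraries, 4 each of I/R + ML264, I/R and Sham. Per the labels' protocols, RNA was extracted from frozen tissue with TRIzol, and libraries were made with Nextera XT, which does not mark strand, for paired reads of 100 bp. The labels name more than 1 sequencer for every library. The authors deposited estimated counts per transcript, neither normalized nor pooled. The submitters' processing notes name FastQC, kallisto and GRCm38 (mm10). Tool versions, any trimming and the annotation release were not given in the sources used here. There were 104952 transcripts under 33615 gene symbols, and 45.8% of its values were not whole. By accession 98.6% of the transcripts are in GENCODE M21, 94.7% with an equal version.

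The values of all transcripts of a symbol were added and the sums rounded to whole numbers. Genes were kept by filterByExpr with a minimum of 10 counts. All 12 libraries were fitted in one model by a robust quasi-likelihood F-test with TMM factors (edgeR 4.0.16, R 4.3.3). A gene was called where its p, adjusted after Benjamini-Hochberg over all genes tested, was under 0.05. The biological coefficient of variation was 0.205. The scripts were tested on simulated data. Depth was 22.26 to 29.93 M counts per library, and floors from 3 counts cover counting error only, as the reads carry no molecular identifiers. No pair of libraries held identical values. Genes with more than 25% of their 31-base words in other genes are called uncertain.

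The members and lists were chosen with earlier results of these data known. Named besides the 7 genes were, per list and comparison, up to 6 called genes in order of adjusted p, and the 3 genes most like each member (average log2 CPM of at least 1, predicted genes left out). Also named are Arntl and Ddx3y as library checks, and others as chosen after their values were seen: Hsd11b2, Fkbp4, Cyp11b2, Dnajb1, Tsc22d1, Pik3r1, Ptgds, called cell markers, Sgk3, Esr1, Dusp1, S100a8 and the remaining called targets. Other processing tried comprised DESeq2 1.42.0, scaling by RLE or upper-quartile factors, testing without a filter or with at least 1 CPM in 4 libraries, a non-robust spread, only the 2 groups compared, limma 3.58.1 voom with library weights, the replicate block, covariates for Arntl and Ddx3y, and each library left out. Replicate numbers were compared by correlating deviations from the group means, and they did not pair the libraries. A few genes that the rule names are not reported here.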

Additional observations from a re-analysis of the deposited data

Results flagged for a closer look

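In 6 of 159 gene and group combinations checked, 1 of 4 libraries lay far from the other 3, and chance alone gives about 1 in 20. Fkbp5 was at 64.3 CPM in I/R library 1, against 27.7 to 33.4 CPM in the other I/R libraries. Arntl was at 11.13 CPM in I/R library 1, against 1.05 to 2.01 CPM in the other I/R libraries. Among the targets, Nfkbia was at 3.212 CPM in Sham library 1 and Mt1 at 14.68 CPM in I/R library 4. Among genes most like one of the 7, Dixdc1 was at 20.31 CPM in I/R + ML264 library 2 and Coq10b at 26.57 CPM in I/R + ML264 library 1.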

How the results depend on the processing

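Of the 7 genes, Fkbp5 alone crossed the threshold under any alternative, in I/R against Sham with DESeq2 or a non-robust spread, where 1 of the 7 was called. Genes called in I/R against Sham numbered 638 with Arntl and 527 with Ddx3y as a covariate, 146 without Sham libraries 2 and 3 and I/R library 1 (an alternative chosen after seeing the data), and 659 to 1485 with 1 library left out. The lowest of these came without Sham library 3 (659), I/R library 4 (694), Sham library 4 (703) and Sham library 2 (738). In I/R + ML264 against I/R, where 8 were called, 144 were called by DESeq2, 22 with no filter, 2 with a non-robust spread, 0 without those 3 libraries, and 0 to 85 with 1 library left out, the highest without I/R + ML264 library 2 (85), and lower counts without I/R + ML264 1 (0), I/R 1 or 4 (2), Sham 2, Sham 4 or I/R 2 (3) and I/R 3 (5). In I/R + ML264 against Sham, where 46 were called, 354 were called by DESeq2, 78 with no filter, 72 with a non-robust spread, 27 with only the 2 groups compared, 27 by limma voom, 12 with either covariate, 7 without the 3 libraries, and 9 to 101 with 1 library left out: 101 without I/R + ML264 1, 94 without I/R + ML264 3 and 77 without Sham 1, against 15 without I/R + ML264 2, 11 without I/R + ML264 4, 12 without Sham 2 and 9 without Sham 3 or 4. Under upper-quartile factors the split of calls in I/R against Sham was 620 higher and 676 lower, in place of 731 and 505. Of the acute targets, 6 rose in I/R against Sham with the replicate block, where 622 of all genes rose. With the replicate block 1009, 1 and 19 genes were called in I/R against Sham, I/R + ML264 against I/R and I/R + ML264 against Sham. The numbers do not pair the libraries: correlations of deviations over 12 pairs ran from -0.11 to 0.097, and 1 library correlated best with its own number.

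Values near 0 changed sign. For I/R against Sham, Nr3c2 was -0.004 and Hsd11b1 0.115 with the Ddx3y covariate, and Hsd11b1 ran from -0.251 to 0.079 with 1 library left out. Without the 3 libraries Tsc22d3 was -0.23, Zbtb16 -0.095 and Hsd11b1 0.307. For I/R + ML264 against I/R, limma voom gave -0.002 for Nr3c2 and -0.063 for Hsd11b1. Without the 3 libraries Nr3c1 was -0.051, Fkbp5 0.02 and Hsd11b1 -0.086. With 1 library left out, Nr3c1 ran from -0.069 to 0.05, Nr3c2 from -0.086 to 0.15, Fkbp5 from -1.004 to 0.014 and Hsd11b1 from -0.093 to 0.283. For I/R + ML264 against Sham, Hsd11b1 was 0.25 with the Ddx3y covariate, 0.221 without the 3 libraries and -0.187 to 0.176 with 1 library left out, and Tsc22d3 was -0.016 without the 3 libraries. The cause was not tested. Of the 13 calls outside the 7 genes that the naming rule picks, at most 6 per list, 12 ended without the 3 libraries, 7 with the Ddx3y covariate, 3 with the Arntl covariate, 4 with the block, 2 with no filter and 0 with DESeq2, and 6 held in all fits with 1 library left out. No transcript of the 7 genes was called with no filter or with any library left out.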

Other observations

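Fkbp5 and the receptor gene ran in opposite order at the ends of their ranges, a pattern noticed in the values and given without a test. The libraries with the lowest Nr3c1 were I/R + ML264 library 2 and I/R library 1, at 55.6 and 52.5 CPM, and these held the highest Fkbp5, at 66.3 and 64.3 CPM. The libraries with the highest Nr3c1 were I/R + ML264 library 1 and Sham libraries 2 and 3, at 69.7, 71.2 and 72.9 CPM, and these held the lowest Fkbp5, at 10.4, 4.82 and 8.09 CPM.

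A pair of libraries stood apart in platelet markers. Their summed level was 105 CPM in I/R + ML264 library 4 and 139.7 CPM in I/R library 4, against 1.88 to 25.1 CPM in the other 10 libraries. Fkbp5 in these libraries was 26.2 and 27.7 CPM, inside the range of the other I/R + ML264 libraries and the lowest of the I/R libraries.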
